A study of Mus musculus with 24 samples.

Results

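The class II and class IV histone deacetylases (HDACs) and the MEF2 transcription factors were described in striatal RNA of wild type and R6/1 mice as 10 genes, taken as the rows of the deposited tables whose gene name is *Hdac4*, *Hdac5*, *Hdac7* and *Hdac9* (class IIa), *Hdac6* and *Hdac10* (class IIb), *Hdac11* (class IV), or *Mef2a*, *Mef2c* and *Mef2d*. All 10 were found, of 24340 genes in each of the 6 tables, and all 10 had at least 1 FPKM in every group. FPKM is the number of fragments scaled by transcript length and by sequenced fragments. R6/1 mice are hemizygous for a transgene of exon 1 of human *HTT* with an expanded CAG repeat and are used as a model of Huntington's disease. The RNA came from 5 libraries of wild type littermates given vehicle (WT-vehicle), 6 of R6/1 mice given vehicle (R6/1-vehicle), 6 of wild type mice given RGFP109 (WT-RGFP109) and 7 of R6/1 mice given RGFP109 (R6/1-RGFP109), all males on a C57BL/6J background. RGFP109 (RG2833), an inhibitor of HDAC1 and HDAC3, was given intraperitoneally at 30 mg/kg, 5 times a week for 3 weeks. Treatment started at an age between 11 and 14 weeks, and the vehicle was the solvent of the drug. The tissue was taken 18 h after the last injection, at 14 to 17 weeks. The transgene is human and has no row in these mouse tables, so the genotype labels could not be checked with it.

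Each group is deposited as 1 pooled FPKM value per table, and every difference below is a comparison of these pooled values, with no replicate check, error or p-value of its own. The authors' test columns for the same pairs were not used here. The depth of the libraries is unknown from these tables. A group appears in 3 tables, in which its values are the same libraries rescaled by a common factor of at most 1.04, so the levels below are medians of 3 tables and the log2 ratios were taken inside the table of the pair, after adding 0.05 FPKM to both values.

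Histone deacetylases remove acetyl groups from lysines of histones and other proteins. The class IIa enzymes have little deacetylase activity of their own, bind MEF2 factors and bring corepressor complexes that contain the class I enzyme HDAC3 to MEF2 target genes. Calcium/calmodulin-dependent kinases, protein kinase D and salt-inducible kinases phosphorylate class IIa HDACs, which then bind 14-3-3 proteins and are held in the cytoplasm, whereas calcineurin dephosphorylates MEF2 in active neurons. In striatal neurons MEF2 factors take part in activity-dependent transcription and in the control of synapse number. Of the class IIb enzymes, HDAC6 deacetylates tubulin and takes part in the handling of protein aggregates, and HDAC10 deacetylates polyamines. HDAC11, the single class IV enzyme, removes fatty acyl groups from lysine and is abundant in brain.

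A MEF2 consensus was found in the promoter windows of *Hdac5*, the gene with the widest range of levels over the groups, and of *Mef2a*, the gene with the narrowest, and these are the promoters shown. Windows were the RefSeq sequences of 250 bases before to 50 bases after each annotated start on GRCm38.p6 (mm10), and both strands were searched. The 9 genes other than *Hdac10* had 15 windows, of which 2 held the MEF2 consensus, against 3.19% of 32851 windows of all genes. The match is in capitals, and the sequences read 5′ to 3′ on the minus strand, on which both genes lie. The *Hdac5* stretch ends at the base before the start (chr11:102230173-102230272) and the *Mef2a* stretch ends at the last base of the match (chr7:67372851-67372958).
Hdac5: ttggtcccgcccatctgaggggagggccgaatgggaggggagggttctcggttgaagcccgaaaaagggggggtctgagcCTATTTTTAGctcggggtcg
Mef2a: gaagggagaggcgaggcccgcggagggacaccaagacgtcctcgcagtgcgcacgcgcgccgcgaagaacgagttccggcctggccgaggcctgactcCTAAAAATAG
The matched 10 bases of *Hdac5* lay at positions -20 to -11 relative to the start and those of *Mef2a* at positions -2 to 8, and each is the reverse complement of the other. A match is a description of letters in a window and was not tied to binding in these data.

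The other motifs divided the windows differently. The half-site of the cAMP response element, TGACG, lay in 3 of the 15 windows (*Hdac4*, *Hdac5* and *Hdac11*), against 20.8% of all windows, and the full site TGACGTCA in 0, against 1.79%. A window with the full site also holds the half-site. The GC box GGGCGG lay in 7 of 15 windows (35.7% of all windows) and CCAAT in 7 of 15 (37.4%). The E-box CACGTG lay in the *Hdac5* window, at positions 4 to 9 (7.15% of all windows), and the serum response element was found in 0 of 15 (1.63%).

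The 10 genes covered a wide range of levels. *Hdac11* was the highest in all 4 groups, with 126 FPKM in WT-vehicle, 110 in R6/1-vehicle, 124 in the WT-RGFP109 group and 109 in R6/1-RGFP109. *Hdac5* came next, with 58.5, 44.2, 59.6 and 49.9 FPKM in the same order of groups. Both genes stood lower in the R6/1 groups than in the wild type groups, and among class IIa enzymes *Hdac5* alone carried most of the transcript level. Its share of the summed class IIa FPKM was 75.5% in WT-vehicle, 71.9% in R6/1-vehicle, 75.2% in the WT-RGFP109 group and 73.4% in R6/1-RGFP109, of sums of 77.5, 61.4, 79.3 and 68.1 FPKM. In WT-vehicle *Hdac7* held 11.7% of that sum, *Hdac4* 6.57% and *Hdac9* 6.18%.

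*Hdac7* had 9.09 FPKM in WT-vehicle, 7.55 in R6/1-vehicle, 9.67 in the WT-RGFP109 group and 8.12 in R6/1-RGFP109. *Hdac4* had 5.09, 5.06, 4.60 and 5.18 FPKM in that order, and *Hdac9* 4.79, 4.66, 5.39 and 4.83. *Hdac4* and *Hdac9* were the lowest of the 10 genes, and their order turned in WT-RGFP109, where *Hdac9* was the higher. Of the class IIb enzymes, *Hdac6* had 16.3, 18.1, 16.6 and 17.9 FPKM, and *Hdac10* had 8.74, 6.67, 8.30 and 7.42 FPKM. *Hdac6* was higher and *Hdac10* lower in both R6/1 groups, while their sum lay between 24.7 and 25.3 FPKM, and the share of *Hdac6* in it was 65.1% in WT-vehicle and 73.0% in R6/1-vehicle.

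The 3 MEF2 genes were close in level. *Mef2c* had 39.1 FPKM in WT-vehicle, 35.5 in R6/1-vehicle, 41.2 in the WT-RGFP109 group and 38.7 in R6/1-RGFP109. *Mef2d* had 37.9, 36.2, 38.5 and 35.8 FPKM in that order, and *Mef2a* had 32.8, 33.0, 32.5 and 31.9. No single MEF2 gene dominated, and their summed level was 109.8 FPKM in WT-vehicle, 104.7 in R6/1-vehicle, 112.1 in the WT-RGFP109 group and 106.4 in R6/1-RGFP109. *Mef2b*, the fourth gene of the family, was under 1 FPKM, with 0.217 in WT-vehicle and 0.0890 in R6/1-vehicle.

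The order of levels was the same in all 4 groups apart from 2 exchanges of neighbours, *Mef2d* above *Mef2c* in R6/1-vehicle and *Hdac9* above *Hdac4* in WT-RGFP109. In WT-vehicle the neighbours *Mef2c* and *Mef2d* were 1.03 times apart, *Hdac7* and *Hdac10* 1.04 times, and *Hdac4* and *Hdac9* 1.06 times. Whether neighbours differ beyond the spread between mice cannot be told from pooled values. Across the 4 groups, the highest level was 1.35 times the lowest for *Hdac5*, 1.31 times for *Hdac10* and 1.28 times for *Hdac7*, and the range of *Mef2a* was 0.05 on the log2 scale.

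**Figure D1:**
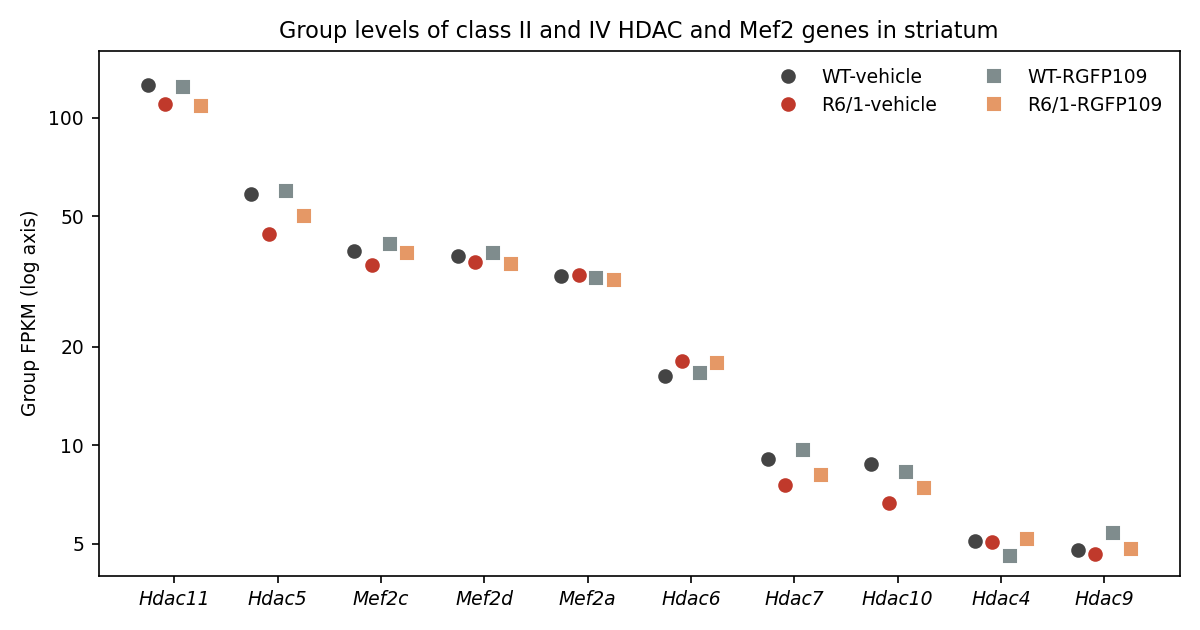
FPKM (log scale) of the 10 genes in WT-vehicle, R6/1-vehicle, WT-RGFP109 and R6/1-RGFP109, where each symbol is the median of the 3 deposited pooled values of a group and no error between mice can be drawn. *Hdac11* stands at 109 to 126 FPKM, and the symbols of *Hdac5*, *Hdac7* and *Hdac10* are spread the most, with both R6/1 groups below both wild type groups.

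The comparison of R6/1-vehicle with WT-vehicle asks how the genotype relates to these transcripts without the inhibitor. *Hdac5* was lower in R6/1-vehicle by a log2 ratio of -0.41, a difference of -24.6%. *Hdac7*, a class IIa gene known from blood vessels and lymphocytes, was lower at -0.27 (-17.2%). *Hdac4* and *Hdac9*, which are class IIa genes of neurons and muscle, had log2 ratios of -0.01 and -0.04. All 4 class IIa values thus lay below 0, by very unequal amounts.

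*Hdac10* had a log2 ratio of -0.39 (-23.8%), the second lowest of the 10, whereas *Hdac6*, its class IIb relative, had 0.14 (10.6%). *Hdac11* had -0.19 (-12.4%). In bulk tissue, fewer cells of a type and less RNA per cell cannot be told apart, here and in all values that follow. *Mef2c* had -0.14 (-9.29%), *Mef2d* -0.07 and *Mef2a* 0.01, so the MEF2 genes were nearer to 0 than *Hdac5*, *Hdac7* and *Hdac10*.

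A log2 ratio of more than 0.5 in either direction was reached by 0 of the 10 genes, where 15.1% of the 13886 genes with at least 1 FPKM in either group reached it (590 higher and 1504 lower in R6/1-vehicle). A ratio of more than 1.2-fold was reached by 3 of the 10, all lower (*Hdac5*, *Hdac10* and *Hdac7*), beside 22.3% of all genes that were lower by that much and 14.6% that were higher. Ratios as far from 0 as that of *Hdac5* were found for 20.7% of all genes, and for *Hdac10* and *Hdac7* the shares were 22.2% and 35.9%. The median log2 ratio of the 10 was -0.10 against -0.01 over all genes, and 8 of 10 were below 0 against 51.1% of all genes. The typical distance from 0 was no larger than elsewhere, with a median absolute log2 ratio of 0.14 in the 10 genes and 0.19 in all.

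The same genotypes were compared under the inhibitor. In R6/1-RGFP109 against WT-RGFP109, *Hdac5* had a log2 ratio of -0.26, *Hdac7* -0.25, *Hdac9* -0.16 and *Hdac4* 0.17. *Hdac4* and *Hdac9* were thus farther from 0 than in the vehicle groups and on opposite sides of it. *Hdac10* had -0.16, *Hdac6* 0.10 and *Hdac11* -0.19. *Mef2c* had -0.09, *Mef2d* -0.11 and *Mef2a* -0.03. Past 0.5 were 0 of 10, against 13.1% of 13870 genes, and past 1.2-fold 0 of 10, against 31.5%. *Hdac5* was at -0.26, just inside 1.2-fold, which is 0.26 on this scale. Below 0 were 8 of 10, against 48.4% of all genes, and the median log2 ratio was -0.13 against 0.01.

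Set across treatment, both R6/1 groups were below both wild type groups in 6 of the 10 genes (*Hdac5*, *Hdac7*, *Hdac10*, *Hdac11*, *Mef2c* and *Mef2d*), as in 37.9% of 13597 genes, and above both in 1 (*Hdac6*), as in 38.8%. The remaining 3, *Hdac4*, *Hdac9* and *Mef2a*, had groups that interleaved. With 4 pooled values, 76.7% of all genes showed 1 of those 2 orders, so 7 of 10 is a share near the background. The vehicle and inhibitor comparisons of genotype share no library.

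**Figure D2:**
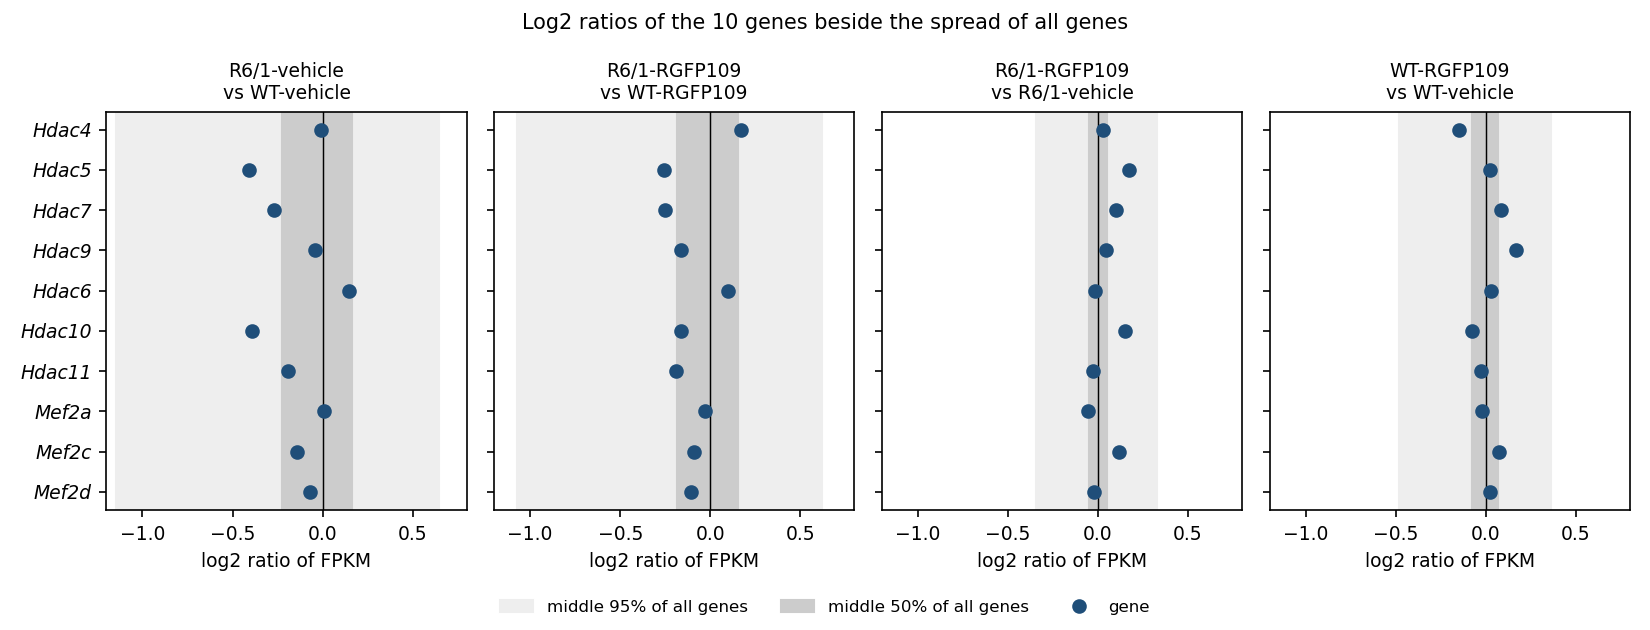
Log2 ratios of FPKM (0.05 FPKM added) of the 10 genes in 4 comparisons, 1 panel each, where dark and light grey bands hold the middle 50% and 95% of all genes with at least 1 FPKM. All 10 points lie inside the light band in every panel, and *Hdac5* at -0.41 and *Hdac10* at -0.39 lie farthest from 0 in the first.

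The inhibitor was compared with vehicle within each genotype. In R6/1-RGFP109 against R6/1-vehicle, *Hdac5* was higher by a log2 ratio of 0.17, *Hdac10* by 0.15, *Mef2c* by 0.12 and *Hdac7* by 0.10. *Hdac4* and *Hdac9* were at 0.03 and 0.04. *Mef2a* had -0.05, *Hdac11* -0.03, *Hdac6* -0.02 and *Mef2d* -0.02. The genes that were lowest in R6/1-vehicle relative to WT-vehicle, *Hdac5*, *Hdac10* and *Hdac7*, were among the 4 highest here, but both comparisons share the R6/1-vehicle libraries, so nothing is read from that order. Past 0.5 were 0 of 10 (3.24% of 13719 genes), and past 1.2-fold 0 of 10 (6.73%). Ratios as far from 0 were found for 12.3% of all genes in the case of *Hdac5*, for 15.5% in that of *Hdac10* and for 20.4% in that of *Mef2c*, and the median of the 10 was 0.04 against 0.00.

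Against WT-vehicle, the R6/1-RGFP109 group had the lower value of *Hdac5* (log2 ratio -0.23), *Hdac10* (-0.24), *Hdac7* (-0.17) and *Hdac11* (-0.21). In this comparison 0 of 10 genes were past 0.5, against 14.9% of 13894 genes. R6/1-vehicle against WT-RGFP109 gave -0.43 for *Hdac5*, -0.36 for *Hdac7* and -0.31 for *Hdac10*, with 0 of 10 past 0.5 against 13.2% of 13872 genes.

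In wild type mice, WT-RGFP109 against WT-vehicle, the values lay elsewhere. *Hdac9* had the highest log2 ratio, 0.17, and *Hdac4* the lowest, -0.15. *Hdac7* had 0.09, *Mef2c* 0.07, *Hdac5* 0.03, *Hdac6* 0.03 and *Mef2d* 0.02. *Hdac10* had -0.08, *Hdac11* -0.02 and *Mef2a* -0.02. Past 0.5 were 0 of 10 (4.22% of 13771 genes), past 1.2-fold 0 of 10 (10.3%), and the median was 0.02 against 0.00.

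The log2 ratio of inhibitor over vehicle in R6/1 minus that in wild type was 0.22 for *Hdac10*, 0.18 for *Hdac4*, 0.15 for *Hdac5* and -0.12 for *Hdac9*. Differences as far from 0 were found for 16.2%, 22.6%, 29.1% and 36.3% of all genes. The remaining 6 genes, *Hdac7*, *Hdac6*, *Hdac11* and the 3 MEF2 genes, were within 0.05 of 0, and the middle 95% of all genes ran from -0.42 to 0.50. Pooled values allow no test of whether the treatment differs between genotypes.

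The partners of these proteins were read in 9 lists. Over all genes in R6/1-vehicle against WT-vehicle, 15.1% were past 0.5, 10.8% were lower by that much and 51.1% were below 0. The class I HDACs, of which HDAC1 and HDAC3 are the targets of the inhibitor, had 0 of 4 genes past 0.5 in R6/1-vehicle against WT-vehicle. All 4 were above 0, with a median of 0.21, where the class IIa median was -0.16. *Hdac2* had 64.7 against 54.0 FPKM (log2 ratio 0.26) and *Hdac3* 59.2 against 58.5 (0.02). *Hdac1* had 4.18 against 3.51 FPKM (0.25), and 0.34 in R6/1-RGFP109 against WT-RGFP109. With the inhibitor against vehicle *Hdac1* was at -0.09 in R6/1 and -0.19 in wild type mice. The level of *Hdac3* was close to that of *Hdac5* in WT-vehicle, while *Hdac8* had 8.21 FPKM. Corepressors that class IIa HDACs recruit had 0 of 9 past 0.5, with *Ncor1*, a scaffold of HDAC3 complexes, at 35.9 against 28.1 FPKM (0.35), *Ctbp1* at 105 against 103 (0.02) and *Cbx5* at 0.12.

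The kinases of class IIa HDACs stood lower. Of 16 kinase genes, 5 were lower in R6/1-vehicle by more than 0.5, 0 were higher, and 13 were below 0, with a median of -0.25. *Camk1g* had 8.96 against 21.6 FPKM (log2 ratio -1.27), *Camk4*, a nuclear kinase of the calcium pathway, 15.4 against 28.9 (-0.91), and *Sik1* 2.28 against 4.12 (-0.84). *Camk2a* and *Camk2b*, the abundant calcium/calmodulin-dependent kinases of synapses, had 367 against 617 FPKM (-0.75) and 268 against 407 (-0.60). *Camk2g* (-0.08), *Camk1* (-0.27) and *Mark2* (-0.36) were nearer to 0. The share of all genes lower by more than 0.5 was 10.8%. Under the inhibitor, R6/1-RGFP109 against WT-RGFP109, the kinases lower by more than 0.5 were again *Camk1g* (-1.27), *Camk4* (-0.96), *Sik1* (-0.72), *Camk2a* (-0.68) and *Camk2b* (-0.66), where 9.29% of all genes were lower by that much.

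Among 7 genes of phosphatases, 1 was lower by more than 0.5, the calcineurin catalytic subunit gene *Ppp3ca*, with 208 against 351 FPKM (-0.75) in vehicle and 198 against 352 (-0.83) under the inhibitor. The regulatory subunit gene *Ppp3r1* had -0.43, and the protein phosphatase 2A genes *Ppp2r1a* and *Ppp2ca* had 0.13 and 0.02. Of the 14-3-3 genes, 1 of 7 was lower by more than 0.5, *Sfn*, at 0.552 against 1.14 FPKM, close to the minimum level. For both lists 1 of 7 is near the 10.8% of all genes that were lower by that much in the vehicle groups. The abundant *Ywhae* (402 against 379 FPKM), *Ywhag* and *Ywhab* had 0.09, 0.26 and 0.17.

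Cofactors of MEF2 had 0 of 10 measured genes past 0.5, with *Mkl2* at 0.04, *Mapk14*, which phosphorylates MEF2, at -0.19, and *Mkl1* at -0.07. The acetyltransferase genes *Ep300* (13.1 against 9.44 FPKM, 0.47) and *Crebbp* (10.6 against 7.55 FPKM, 0.48) were the highest of the list and were chosen after their values were seen.

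The target list of MEF2, activity-dependent genes of neurons, had 6 of 11 measured genes lower by more than 0.5 in R6/1-vehicle. The share of all genes lower by that much was 10.8%. In the list 0 were higher by more than 0.5, and the median was -0.50. The study names *Arc* and *Egr1* among genes already known to be aberrant in HD striatum. *Arc* had 26.7 against 75.1 FPKM (log2 ratio -1.49), *Nr4a1* 18.6 against 38.3 (-1.04), *Egr1* 50.8 against 92.6 (-0.87) and *Homer1* 17.7 against 28.0 (-0.66). *Bdnf*, a neurotrophin gene, was at 1.76 against 2.64 FPKM (-0.57) and *Klf2* at 1.28 against 1.84 (-0.50, just past the limit). *Jun* had -0.50, just inside it, and the protocadherin gene *Pcdh10* was the single gene above 0, at 0.40. These genes answer to other factors too. Of the 9 with a promoter window, 2 held the MEF2 consensus (*Jun* and *Klf2*), against 3.19% of all windows. The CRE half-site lay in 7 of the 9 (20.8% of all windows) and the GC box in 8 (35.7%). CCAAT lay in 3 (37.4%), the E-box in 2 (7.15%), and the serum response element and full CRE site in 0. The counts are of genes, which can have several windows, and the shares are of windows. Under the inhibitor 4 of 11 were lower by more than 0.5, against 9.29% of all genes. These were *Arc* (-1.18), *Nr4a1* (-0.92), *Egr1* (-0.83) and *Homer1* (-0.80). The MEF2 genes themselves had log2 ratios from -0.14 to 0.01 in the vehicle groups and from -0.11 to -0.03 under the inhibitor. Whether MEF2 bears on the values of the target list was not tested.

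HDAC6 partners in microtubule and aggregate handling had 0 of 10 past 0.5, against 15.1% of all genes. Above 0 were 9 of 10, with a median of 0.19, where 51.1% of all genes were below 0. The chaperone gene *Hsp90ab1* (803 against 704 FPKM) and the aggregate receptor gene *Sqstm1* (328 against 288) were each at 0.19. The tubulin deacetylase gene *Sirt2* was at -0.25. *Hdac6* itself was at 0.14, and a link between it and these genes was not tested. Of the genes of polyamine synthesis and breakdown, whose products HDAC10 deacetylates, 0 of 7 measured were past 0.5, with a median of -0.12. The spermidine synthase gene *Srm* had 40.5 against 52.2 FPKM (-0.37), *Smox* had -0.24 and *Azin1* 0.19. With the inhibitor against vehicle, 0 genes of the 9 lists with at least 1 FPKM were past 0.5 in either genotype. The shares of all genes past 0.5 were 3.24% in R6/1 and 4.22% in wild type mice. In wild type mice *Arc* had 56.1 against 72.6 FPKM (-0.37), and in R6/1 mice *Klf2* had a log2 ratio of 0.32 and *Bdnf* 0.30.

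**Figure D3:**
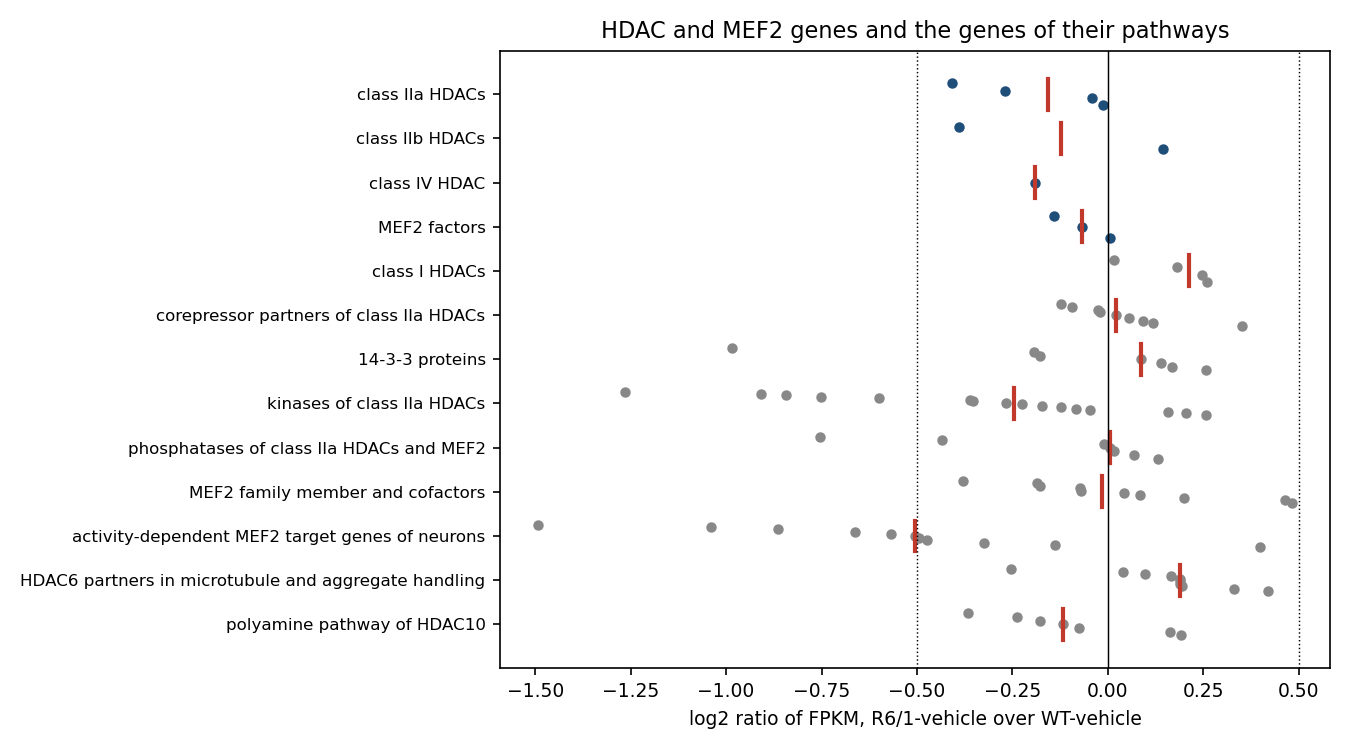
Log2 ratios of FPKM (0.05 FPKM added) in R6/1-vehicle over WT-vehicle for single genes with at least 1 FPKM, with blue points for the 10 genes described, grey points for the genes of the 9 partner lists, a red bar for each list's median and dotted lines at -0.5 and 0.5. The kinase and MEF2 target lists reach below -1, while the 4 class I HDAC genes lie between 0.02 and 0.26 and all blue points lie inside the dotted lines.

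Markers of the cell types in the tissue differed between the genotypes. For the marker counts below, the share of all genes lower by more than 0.5 in R6/1 was 10.8% in the vehicle groups. It was 9.29% in the RGFP109 groups. Defining markers of the striatum were high, with *Ppp1r1b* (DARPP-32) at 1149 FPKM in WT-vehicle, and 0 markers of any list were at 0 in a group. The summed level of 8 markers of striatal projection neurons was 3192 FPKM in WT-vehicle, 1232 in R6/1-vehicle, 3066 in the WT-RGFP109 group and 1108 in R6/1-RGFP109. Of these, 7 of 8 were lower by more than 0.5 in R6/1-vehicle, with a median log2 ratio of -1.31, and this stands beside every genotype value of *Hdac5*, *Hdac11*, *Mef2c*, the kinases and the MEF2 targets. The interneuron list (*Pvalb*, *Sst*, *Npy*, *Chat*, *Gad1* and *Th*) had 4 of 6 lower by more than 0.5 (median -0.85). *Gad1* is also expressed in striatal projection neurons, so this list is not particular to interneurons.

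The 6 markers of neocortical projection neurons were all lower by more than 0.5 in R6/1-vehicle (summed level 194 against 351 FPKM, median -0.72), whereas under the inhibitor 0 of 6 were (247 against 324 FPKM, median -0.13). Oligodendrocyte markers were lower by more than 0.5 in 4 of 6 in the vehicle groups (2621 against 4674 FPKM, median -0.67). Under the inhibitor 0 of 6 were lower by that much (2956 against 3643 FPKM, median -0.18). Below 0 were 6 of 6 in the vehicle groups and 5 of 6 under the inhibitor. In R6/1-RGFP109 against R6/1-vehicle, the neocortical list was higher by a median of 0.47 and the oligodendrocyte list by 0.12. All other lists had medians below 0 there. These were striatal projection neurons (-0.15), endothelial cells (-0.12), interneurons (-0.08), astrocytes (-0.06), microglia (-0.02) and choroid plexus (-1.89). Beside them *Hdac5* had 0.17, *Hdac10* 0.15 and *Mef2c* 0.12. In WT-RGFP109 against WT-vehicle the neocortical and oligodendrocyte lists had medians of -0.19 and -0.37, beside *Hdac5* at 0.03, *Hdac10* at -0.08 and *Mef2c* at 0.07. The part of these cell types in the values of the HDAC and MEF2 genes was not tested.

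Astrocyte markers had a median of -0.36 in R6/1-vehicle (summed level 449 against 640 FPKM, 1 of 6 past 0.5), microglial markers -0.28 (207 against 247 FPKM, 0 of 6) and endothelial markers -0.20 (17.5 against 24.3 FPKM, 1 of 5). The astrocyte and endothelial counts are a single lower gene each, where 10.8% of all genes were lower by that much. Choroid plexus markers were lower by more than 0.5 in 4 of 5 (21.1 against 34.3 FPKM), and 5 of 5 were below 0. The inhibitor groups had 5 of 5 lower by more than 0.5 than the vehicle groups in both genotypes. Past 0.5 in either direction were 3.24% of all genes in R6/1 and 4.22% in wild type mice. The summed levels were 13.3 FPKM in WT-RGFP109 and 8.81 in R6/1-RGFP109. The endothelial list, the one of the cells in which *Hdac7* is best known, had summed levels of 20.3 FPKM in WT-RGFP109 and 15.8 in R6/1-RGFP109. With the inhibitor against vehicle its medians were -0.12 in R6/1 and -0.14 in wild type mice, with 5 of 5 below 0 in each. *Hdac7* was above 0 in those comparisons, at 0.10 and 0.09.

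**Figure D4:**
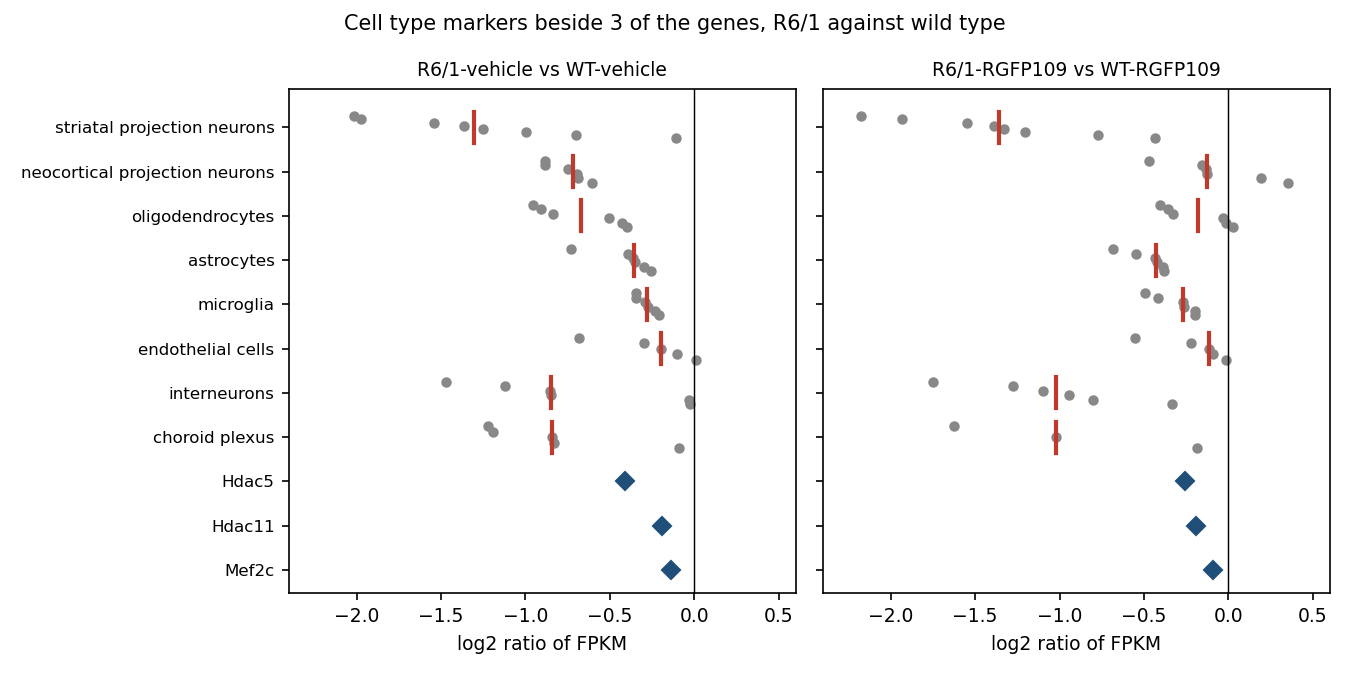
Log2 ratios of FPKM (0.05 FPKM added) of cell type markers with at least 1 FPKM, R6/1 over wild type, in the vehicle groups (left) and the RGFP109 groups (right), with grey points for single markers, a red bar for each list's median and blue diamonds for *Hdac5*, *Hdac11* and *Mef2c*. The median of the striatal projection neuron list is -1.31 on the left, and the neocortical list has a median of -0.72 on the left and -0.13 on the right.

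Some genes followed the same course over the groups. By the distance between the log2 ratios of the other 3 groups to WT-vehicle, over 12992 genes, those nearest to *Hdac5* were *Col6a2* (distance 0.0237), *Slc2a4rg-ps* (0.0275) and *Homer2* (0.0324), and 13 genes lay within 0.05. Nearest to *Mef2c* were *Ankrd10* (0.0123), *Iqce* (0.0163) and *Sh3rf3* (0.0187), with 22 genes within 0.05. With 3 ratios over 4 pooled groups, many genes share a course, and the likeness describes levels only.

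The genes lie apart in the genome, with coordinates on mm10. *Hdac5* spans chr11:102195747-102230172, *Hdac11* chr6:91156815-91174683, *Hdac7* chr15:97784365-97844502 and *Hdac10* chr15:89123303-89128700. *Hdac4* lies at chr1:91932749-92148393, *Hdac9* at chr12:34047582-34917095 and *Hdac6* at chrX:7930122-7947889. *Mef2a* lies at chr7:67231163-67372858, *Mef2c* at chr13:83504034-83667079 and *Mef2d* at chr3:88142395-88169167. In RefSeq, 7 of the 10 overlap another annotated gene, of which 1 is protein coding (*Slc48a1*, sharing 32 bases with *Hdac7*). The study's methods name a TruSeq RNA kit and do not say that it marks strand. Reads of overlapping genes may therefore not be told apart.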

How the data were processed

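Striatal RNA of 24 mice was sequenced as single-end reads from libraries of a TruSeq RNA kit. Per the submitters' processing notes and the study's methods, the authors aligned reads with STAR 2.5.0b to mm10 RefSeq transcripts, computed FPKM with Cufflinks 2.2.1 and compared groups in pairs with Cuffdiff, and the deposited FPKM values are 1 pooled value per group in each of 6 tables. The tables' fold change, test statistic, p-value and q-value columns hold the authors' own comparisons and were not used. Ratios were taken as log2(FPKM + 0.05) within a table, over genes with at least 1 FPKM in either group, which understates the difference of low genes. The pooled FPKM values alone give no test, error or depth. Every group was spread over 2 sequencing pools, which the deposited values merge. Genes past a log2 ratio of 0.5 were counted. All 10 genes were named, and of each list every gene past that limit plus up to 3 of the highest WT-vehicle FPKM. The result of 1 gene that this rule names is left out here, and *Hdac1* was named in addition as a target of the inhibitor. The genes and lists were chosen with earlier results of these data known. The alternatives were another pseudocount, minimum, limit, centring on the median of all genes, and ratios through another group. Scripts ran in Python 3.11.15 with pandas 2.3.3, numpy 2.4.6 and matplotlib 3.10.9, and were tested on simulated data.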

Additional observations from a re-analysis of the deposited data

How the results depend on the processing

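The 200 recomputed log2 ratios of the 10 genes (another pseudocount of 0.5 FPKM or none, centring, or a path through another group) all lay within 0.1 of the values given, the largest shift was 0.0216, and 0 took another sign. In the 4 comparisons within a treatment or a genotype, the number of the 10 genes past the limit was 0 under every alternative run, except that 1.2-fold gave 3 in R6/1-vehicle against WT-vehicle. In that comparison 36.9% of all genes were past 1.2-fold. The 1.2-fold limit also gave 3 in R6/1-vehicle against WT-RGFP109, *Hdac5*, *Hdac7* and *Hdac10*, all lower. Ratios as far from 0 as theirs were found for 16.5%, 21.8% and 25.8% of all genes. Counts over all genes depended on the minimum and the limit by construction. In R6/1-vehicle against WT-vehicle, 2094 genes became 4033 without a minimum, 1292 with at least 5 FPKM, 5121 past 1.2-fold and 638 past a log2 ratio of 1. In R6/1-RGFP109 against WT-RGFP109, 1816 became 3555, 1089, 4370 and 566 in that order, in R6/1-RGFP109 against R6/1-vehicle 445 became 1483, 296, 923 and 265, and in WT-RGFP109 against WT-vehicle 581 became 2076, 346, 1414 and 326. No paired analysis was possible because each group is deposited as 1 pooled value, and for the same reason no library could be left out. The pooled values give no spread between mice and no depth, so the differences of *Hdac5* or *Hdac10* were not set against replicate error here.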
